A study of Mus musculus with 2 samples.

Results

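The nuclei described here are excitatory nuclei of the mouse hippocampus that carried the fibronectin transcript Fn1. They were chosen with a gate on raw counts of unique molecular identifiers (UMIs, 1 for each captured transcript molecule). A nucleus was taken with at least 5 UMIs of Fn1 and at least 1 UMI of the vesicular glutamate transporter genes Slc17a7 and Slc17a6 together. It had to hold no UMI of the endothelial genes Flt1, Pecam1 and Cldn5 or of the fibroblast genes Col1a1 and Col1a2. It could hold at most 2 UMIs of Gad1 and Gad2, fewer than 20 of Foxp2 and Hs3st4, and fewer of Prox1, Dsp and C1ql2 than of Fn1. The gate kept 474 of 48,103 nuclei, 202 from the control library and 272 from the library labelled knockout.

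The subiculum is the main output station of the hippocampus: it receives the axons of CA1 pyramidal neurons and sends its own to the entorhinal cortex, the thalamus and the hypothalamus. Fn1 encodes a secreted protein of the extracellular matrix and is known as a marker of subicular pyramidal neurons. Tshz2 encodes a zinc finger transcription factor, Nts the neuropeptide neurotensin, and Slc17a6 the vesicular glutamate transporter VGLUT2. Capicua, the product of Cic, is an HMG-box repressor that binds short octamers. Signalling through receptor tyrosine kinases and ERK relieves its repression of ETS factors and of feedback inhibitors of the same pathway.

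Mice at postnatal day 19 were littermates of 2 genotypes: Cicflox/flox for the control, and Emx1-Cre; Cicflox/flox for the group labelled knockout. Both groups thus carried the floxed Cic allele on both chromosomes, and the groups differed in Emx1-Cre, which is active in the dorsal telencephalic lineage of excitatory neurons and glia and not in the lineage of most interneurons. Each group was 1 library made from frozen hippocampi pooled over 3 mice, 2 males and 1 female, with 1 hippocampus per mouse. With 1 library a group no difference could be tested, and every interval is a 95% interval for counting error only, which does not cover the spread between mice or preparations. Intervals of ratios treat each UMI as independent, so they leave out the spread between nuclei as well.

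The control library held 314,453,640 UMIs in 25,907 barcodes and the other library 252,995,761 UMIs in 23,207 barcodes; medians per nucleus were 10,457.5 and 9248 UMIs after the filter (at least 500 genes, at most 5% mitochondrial UMIs). Of the filtered barcodes, 166 occurred in both libraries, among them 1 gated nucleus of each. Fn1-gated nuclei were deeper than the whole, with medians of 25,883 UMIs in the control library (9866 to 80,811) and 21,659.5 in the labelled-knockout library (7944 to 56,539). They made up 0.806% of control nuclei (0.699% to 0.925%) and 1.18% of labelled-knockout nuclei (1.04% to 1.33%). Doublet calls covered 21 gated control nuclei (10.4%) and 17 of the library labelled knockout (6.25%). Nuclei were called female from Xist or male from Y-linked genes: 57 and 91 in the control library, 94 and 123 in the labelled-knockout library, with 54 and 55 not called.

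Cic itself was not lower in the labelled-knockout library, so the label is used throughout as the submitters gave it. Fn1-gated nuclei held 45 Cic UMIs in the control library and 70 in the labelled-knockout library, 8.16 and 10.97 CPM (UMIs per 1,000,000 UMIs of the summed nuclei). The log2 ratio of CPM, labelled knockout over control, was 0.42 (−0.13 to 1.00). A UMI of Cic was seen in 19.3% and 21.3% of the gated nuclei. A 3′ count does not read the floxed exons as such, and the part of the transcript that is lost is not given in the sources used here.

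The markers matched the subicular label in part. Of the 7 genes of the subiculum list 3 were found in over 50% of nuclei in both libraries: Fn1, Tshz2 and Slc17a6. The gate used Fn1, and it used Slc17a6 together with Slc17a7, so of the 3 only Tshz2 was outside it. Tshz2 was detected in 93.6% of control nuclei (89.2% to 96.5%) and 97.8% of labelled-knockout nuclei (95.3% to 99.2%). Its median was 32.5 UMIs per nucleus in the control library, with a range of 0 to 181, and 32 in the labelled-knockout library, with a range of 0 to 201. In nuclei gated as microglia, which should lack the gene, 4.97% and 5.69% held a Tshz2 UMI. Microglia nuclei were shallow, at medians of 2517 and 2042 UMIs. When each nucleus was reduced at random to 2000 UMIs, Tshz2 was found in 80.7% and 90.1% of Fn1-gated nuclei and in 3.84% and 5.47% of microglia nuclei. This thinning left out 381 of 1267 and 624 of 1282 microglia nuclei with fewer UMIs, and no Fn1-gated nucleus. Tshz2 was thus far above its level in the deeper microglia nuclei. It was also found in 21.7% and 35.7% of CA1-gated and in 26.9% and 32.2% of Foxp2/Hs3st4-high nuclei, and it belongs to a second list, for retrosplenial or layer 5 near-projecting neurons.

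Nts marked a portion of the nuclei. It was detected in 41.6% of control nuclei (34.7% to 48.7%) and 35.3% of labelled-knockout nuclei (29.6% to 41.3%), at 31.9 and 30.4 CPM, against 1.18% and 3.12% of microglia nuclei. After thinning the shares were 6.93% and 4.78%, against 0.677% and 1.67% of the microglia nuclei kept, and a nucleus with Nts held 2.10 and 2.02 UMIs on average. Slc17a6 was found in 72.8% and 76.1% and its partner Slc17a7, which encodes VGLUT1, in 98.0% and 96.3% of nuclei. Gpr101, an orphan receptor gene of the subiculum list, was found in 19.3% and 16.5%. Teddm3, also of that list, was found in 35.1% of control and 5.88% of labelled-knockout nuclei. Ly6g6e, the remaining gene, was in 0 of 202 control nuclei, which allows up to 1.49% of nuclei with a UMI (3 counts of 202) and does not limit the share that express it, and in 0.368% of labelled-knockout nuclei.

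**Figure D1:**
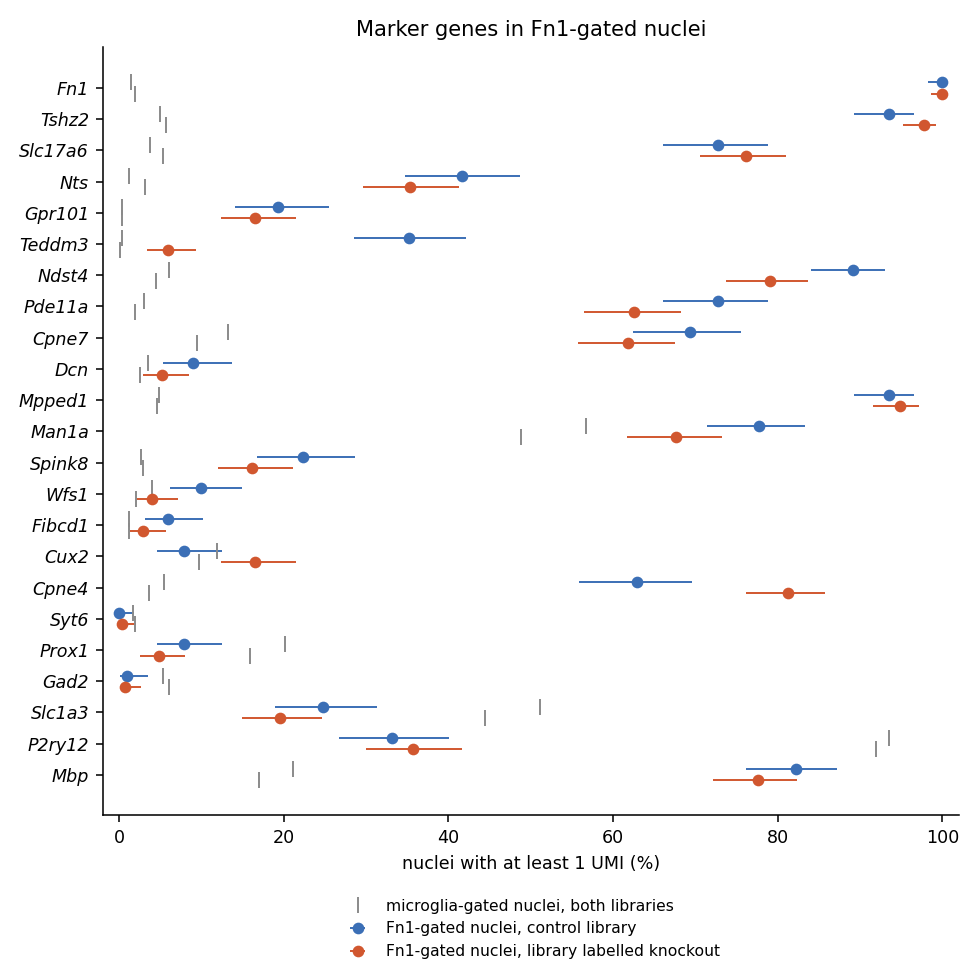
Share of Fn1-gated nuclei with at least 1 UMI of each marker gene (percent, points with 95% binomial intervals), for the control library and the library labelled knockout, beside the share in microglia-gated nuclei (grey ticks). Tshz2, Ndst4 and Mpped1 were found in most nuclei of both libraries, and Teddm3 in 35.1% of control nuclei against 5.88% in the labelled-knockout library.

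A pair of other lists for excitatory types, prosubiculum and retrosplenial, summed to levels nearer to that of the subiculum than the remaining lists described here. The 7 genes of the subiculum list, Fn1 included, summed to 1814 CPM in the control library and 2138 CPM in the labelled-knockout library. The list for prosubiculum or ventral CA1 summed to 1307 and 1287 CPM, of which Ndst4 gave 1009 and 1077 CPM. Of its 5 genes 3 were found in most nuclei of both libraries, and the gate used none of these 3. Ndst4 was in 89.1% of control and 79.0% of labelled-knockout nuclei, Pde11a in 72.8% and 62.5%, and Cpne7 in 69.3% and 61.8%. Ntng2 was in 31.2% and 26.5%, and Dcn in 8.91% and 5.15%. By this measure the prosubiculum list matched the gated nuclei no less than the subiculum list did. The list for retrosplenial or layer 5 near-projecting neurons summed to 1323 and 1531 CPM, of which Tshz2, shared with the subiculum list, gave 1260 and 1481 CPM. Its other genes included Lypd1, found in 63.4% and 48.2% of nuclei, and Slc17a8, found in no control nucleus and in 1 of the labelled-knockout library. These lists therefore did not set subicular nuclei apart from both neighbours. Mpped1 and Man1a, from the 6 genes of the CA1 list, were found in most nuclei, and the list summed to 358 and 391 CPM. The more restricted CA1 genes Wfs1 and Fibcd1 were found in 9.90% and 5.94% of control nuclei and in 4.04% and 2.94% of labelled-knockout nuclei. The 6-gene lists for astrocytes, oligodendrocytes and microglia summed to 56.9, 155 and 56.0 CPM in the control library and to 68.8, 159 and 51.1 CPM in the labelled-knockout library. Of the fibroblast list 3 of 6 genes and of the endothelial list 4 of 5 genes had no UMI in either library, which the gate fixes in part. The gate also limited Gad1 and Gad2, so the share of nuclei with Gad2, 0.990% and 0.735%, is a description of the gate. The myelin gene Mbp was in 82.2% and 77.6% of the gated nuclei, and the part of free RNA in it was not tested.

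The gate also admitted nuclei that did not look like the rest. Ndst4, a heparan sulfate sulfotransferase gene, split them plainly: its median was 28 UMIs in the control library and 23.5 in the labelled-knockout library, while 22 and 57 nuclei held none. Nuclei with at least 5 Ndst4 UMIs numbered 172 in the control library (85.1%, 79.5% to 89.8%) and 207 in the labelled-knockout library (76.1%, 70.6% to 81.0%). These Ndst4-high nuclei held Tshz2 in 96.5% and 100% of cases, Slc17a6 in 77.9% and 86.0%, and Nts in 44.8% and 44.4%. They held 162 of 176 and 187 of 194 Nts UMIs, and 143 of 148 and 18 of 19 UMIs of Teddm3, which encodes a transmembrane protein. The thresholds for this split were chosen after the values had been seen.

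The remaining 30 control nuclei and 65 labelled-knockout nuclei fell mostly into a pair of groups. One had at least 3 UMIs of Il1rapl2, which encodes a relative of the interleukin-1 receptor accessory protein, with 23 nuclei in the control library (11.4%, 7.36% to 16.6%) and 20 in the labelled-knockout library (7.35%, 4.55% to 11.1%). These nuclei held the netrin receptor gene Dcc at 4949 and 5305 CPM, and Nts in 1 control nucleus and in none of the other library. Doublet calls covered 5 of the 23 control nuclei and 0 of the 20 others. The other group had at least 3 UMIs of the phospholipase C gene Plch1, with 1 nucleus in the control library (0.495%, 0.0125% to 2.73%) and 33 in the labelled-knockout library (12.1%, 8.5% to 16.6%). The Plch1 nuclei held the upper-layer marker Cux2 in 78.8% of cases, with no Nts UMI. No cell type name is given to either group.

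**Figure D2:**
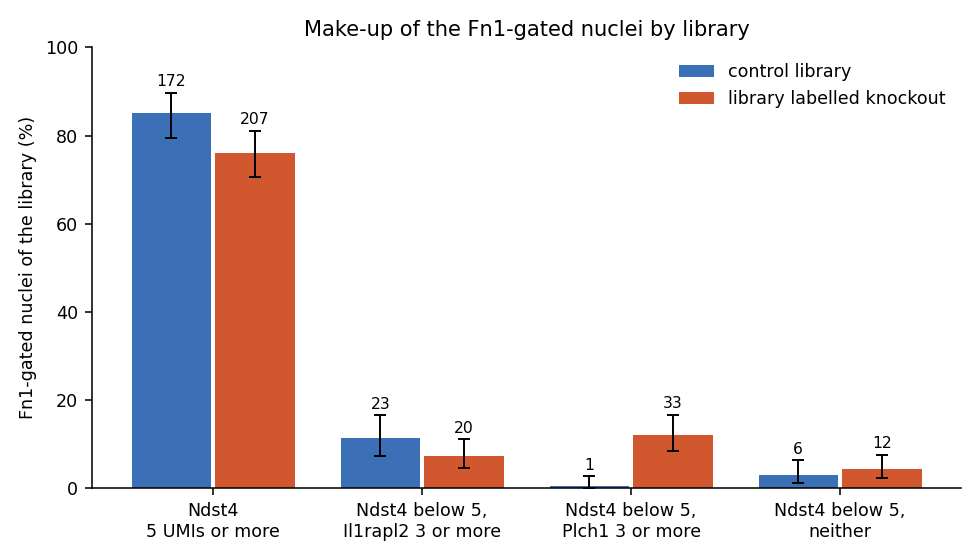
Make-up of the Fn1-gated nuclei of each library (percent of its gated nuclei, with 95% binomial intervals, numbers of nuclei above the bars) by Ndst4, Il1rapl2 and Plch1 UMIs. Nuclei low in Ndst4 with Plch1 were 33 of 272 in the labelled-knockout library and 1 of 202 in the control library.

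Nuclei with Plch1 were found in both libraries by another rule, which did not use the Fn1 threshold. Excitatory nuclei with Plch1 and the neurotrophin-3 gene Ntf3, at any level of Fn1, numbered 58 in the control library (0.231% of nuclei) and 161 in the labelled-knockout library (0.699%). At least 5 Fn1 UMIs were found in 2 of the 58 (3.45%, 0.420% to 11.9%) and in 30 of the 161 (18.6%, 12.9% to 25.5%). In the 58 and the 161 nuclei Fn1 stood at 21.6 and 138 CPM, at median depths of 17,588 and 16,279 UMIs. Ndst4 stood at 106 and 17.1 CPM in them. Whether the 2 sets held the same kind of nuclei was not tested. Since Plch1 and Ntf3 were themselves higher in the labelled-knockout library (237 and 407 CPM for Plch1 in these nuclei, 103 and 149 CPM for Ntf3), a larger number of nuclei and a higher level of the genes that chose them cannot be told apart. Of the 58 nuclei 12 were called female and 25 male, and of the 161 nuclei 73 and 47, the female ones from 1 mouse per library. Of the 33 gated Plch1 nuclei, 19 were called female and 9 male, so they came from more than 1 mouse. A difference between the pools of tissue and one between genotypes cannot be told apart. Values below are for all gated nuclei unless Ndst4-high nuclei are named.

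Against all other excitatory nuclei of the same library, the gated nuclei were led by Fn1, which the gate used, and by a set of genes given here as a description only. Rxfp1, the relaxin receptor gene, stood at 284 CPM in gated control nuclei and 246 CPM in labelled-knockout nuclei, against 19.2 and 24.0 CPM in other excitatory nuclei. Brinp3, a gene of the family of neuronal cell cycle inhibitors, stood at 1559 and 1067 CPM against 207 and 153 CPM. The noncoding transcript 9330185C12Rik stood at 178 and 28.4 CPM against 1.96 and 1.12 CPM. Rab38, Cftr, Syt2, Cdh7, Kctd8 and Stac were among the other leading genes. On the low side were Prox1, which the gate used, Il16, Smoc2 and Stxbp6. Also low were the kainate receptor gene Grik4, at 10.9 and 20.4 CPM against 334 and 322 CPM, and Zbtb20, a hippocampal transcription factor gene, at 167 and 205 CPM against 3080 and 3154 CPM. Low levels of Prox1 and Stxbp6 were not particular to the gated nuclei. In CA1-gated nuclei, whose gate limited Prox1 as well, Prox1 stood at 8.03 and 8.36 CPM and Stxbp6 at 22.4 and 12.7 CPM. For the other low genes CA1-gated levels are not given here.

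The question of the design is what differs when Emx1-Cre is present. A gene was counted when it held at least 50 UMIs and 10 CPM in the library where it was higher, and its CPM had to differ 2-fold or more; such a count describes size alone, without any test. In Fn1-gated nuclei 257 of 8304 genes were higher in the labelled-knockout library (3.09%) and 67 were lower (0.807%). In Ndst4-high nuclei alone the counts were 245 of 8211 higher (2.98%) and 92 lower (1.12%). Leaving out the nuclei with shared barcodes gave 259 higher and 71 lower. The median log2 ratio over 13,150 genes was 0.07.

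The direction was the same in both sexes for nearly all of these genes. Without 9 mitochondrial genes, 248 genes were higher, of which 246 had a ratio of the same sign in both sexes and 157 reached 2-fold in both. Of the 67 lower genes 65 had the same sign and 31 reached 2-fold in both. The female nuclei of a library were from 1 mouse and the male ones from 2, so this is a check inside the pools and not a replicate. The genes were chosen by the ratio in the sum of these same nuclei, so an equal sign in both parts was largely fixed in advance. Mitochondrial genes gave 0.0157% of UMIs in gated control nuclei and 0.0467% in labelled-knockout nuclei; the part of RNA from outside the nucleus in the differences was not tested.

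Ndst4-high nuclei carried 171 of the 248 higher genes (69.0%) and 59 of the 67 lower genes (88.1%) past the same size. The other 77 higher genes did not meet the rule there, by ratio or by the minimum level. Plch1 had 5 and 28 UMIs in Ndst4-high nuclei and Ntf3 had 3 and 10, under the minimum of 50. Both were still past 2-fold there. Genes of the Plch1 nuclei were among the 77: 322 of 359 Plch1 UMIs of the library labelled knockout (89.7%) lay in the 33 Plch1 nuclei, as did 164 of 190 Ntf3 UMIs (86.3%) and 75 of 82 UMIs of the desmosomal cadherin gene Dsc3 (91.5%). The Plch1 share was largely set by the rule, which chose these nuclei by their Plch1 UMIs. By contrast 36 of 632 Ankrd55 UMIs (5.70%) and 30 of 478 Etv4 UMIs (6.28%) lay in the 33 nuclei. The plot of the largest ratios shows which genes rested on these nuclei.

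The CA1-gated nuclei set beside them below were gated on the sum of Wfs1, Fibcd1 and Mpped1. Mpped1 carried that gate, since it was found in 99.9% and 100% of them. Wfs1 was found in 37.7% of CA1-gated control nuclei and 20.8% of labelled-knockout ones, and Fibcd1 in 39.7% and 25.8%. Whether these shares reflect other nuclei or lower levels in the same nuclei was not tested.

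**Figure D3:**
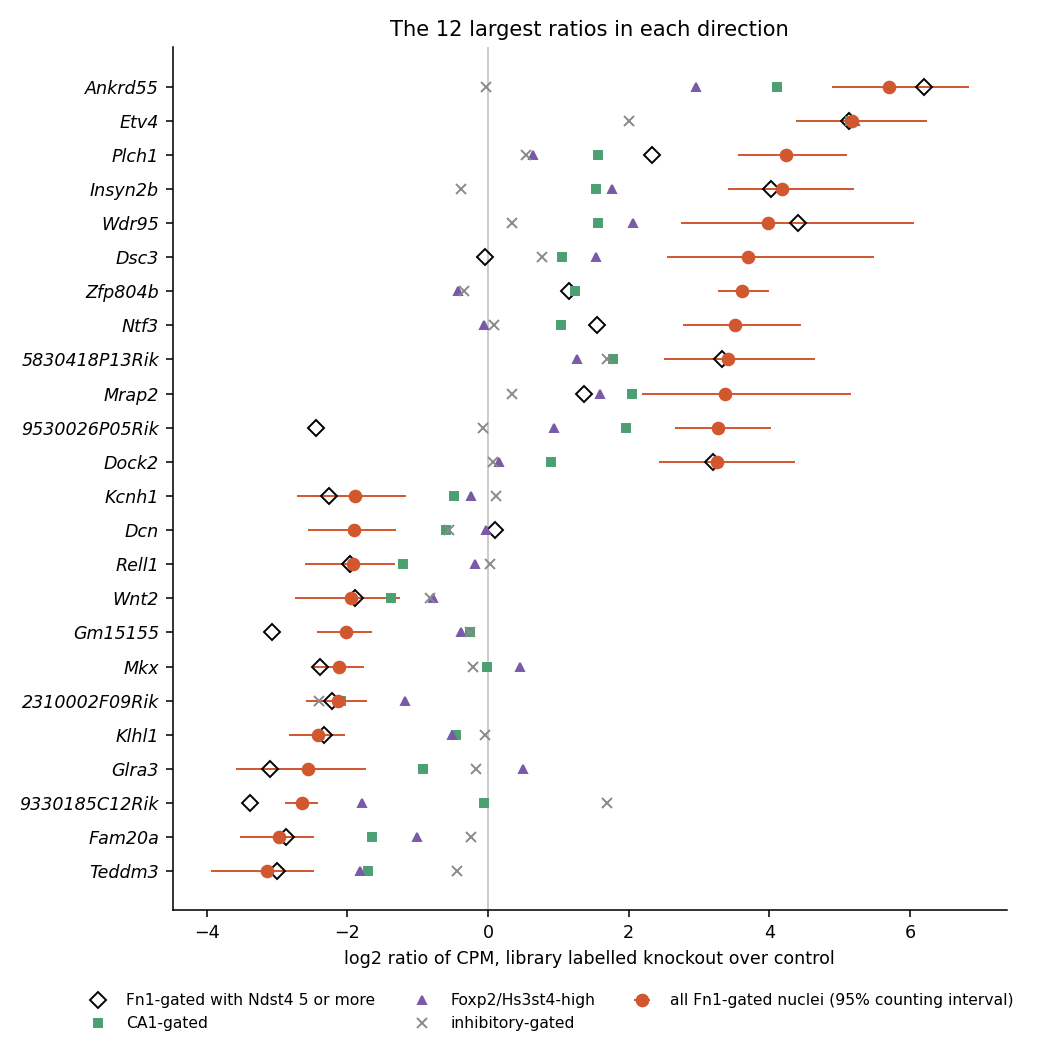
Log2 ratio of CPM, library labelled knockout over control, for the 12 genes with the largest ratio in each direction in Fn1-gated nuclei (circles with 95% counting intervals), beside Ndst4-high Fn1-gated nuclei (diamonds), CA1-gated (squares), Foxp2/Hs3st4-high (triangles) and inhibitory nuclei (crosses). In Ndst4-high nuclei Dsc3 (1 and 1 UMIs) and Dcn (9 and 10 UMIs) lie near 0, and 9530026P05Rik lies below 0 on 18 and 3 UMIs. The ratio of Ankrd55 is near 0 in inhibitory nuclei.

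Among the 12 genes with the largest ratios, Ankrd55, which encodes an ankyrin repeat protein, had the highest. It had 10 UMIs in 202 control nuclei and 632 in 272 labelled-knockout nuclei, 1.81 and 99.0 CPM. Control nuclei had a median of 0 and a highest value of 2 UMIs, and labelled-knockout nuclei a median of 2 and a highest value of 12. The nuclei overlapped at 0, since 3.47% of the control nuclei and 77.6% of the others held a UMI. The log2 ratio was 5.70 (4.88 to 6.84), and 6.20 in Ndst4-high nuclei. Female-called and male-called control nuclei held no Ankrd55 UMI, so the 10 control UMIs lay in nuclei whose sex was not called, against 226 and 273 UMIs in the labelled-knockout library. In inhibitory nuclei Ankrd55 stood at 98.8 and 96.9 CPM.

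Etv4 encodes a PEA3-type ETS factor and is among the best known genes that Capicua represses. It had 11 UMIs in the control library and 478 in the labelled-knockout library, 1.99 and 74.9 CPM, a log2 ratio of 5.17 (4.38 to 6.24). The median was 0 and the highest value 2 in control nuclei, against 1 and 9 in the labelled-knockout library. A UMI of Etv4 was found in 4.95% and 72.1% of the nuclei. Etv4 was higher also in nuclei outside the lineage of Emx1-Cre: in microglia nuclei the share was 3.00% and 12.5%, at 8.22 and 53.6 CPM, and in inhibitory nuclei 3.95% and 11.9%. Inhibitory nuclei, at 2.58 and 10.4 CPM, were nearer in depth to the gated ones. At 2000 UMIs per nucleus the gated share was 0.495% and 11.8%, and that in microglia 0.903% and 9.12%. The gated nuclei, at 74.9 CPM in the labelled-knockout library, thus stood above both other kinds, far more so above inhibitory than above microglia nuclei. The part of free RNA in the value of the gated nuclei was not tested.

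A few others of the 12 were high in Ndst4-high nuclei too, though the Plch1 nuclei held a portion of their UMIs: 35.5% of those of Insyn2b, 37.8% of Dock2, 22.0% of Wdr95 and 43.1% of 5830418P13Rik in the labelled-knockout library. Wdr95, a WD repeat gene, had 4 and 82 UMIs, with a log2 ratio of 3.99 (2.74 to 6.06) and 4.41 in Ndst4-high nuclei. Insyn2b, a gene of the family of inhibitory synapse factors, had 12 and 262 UMIs, with a log2 ratio of 4.18 (3.41 to 5.21) and 4.02 in Ndst4-high nuclei. Dock2, which encodes an exchange factor for Rac, had 11 and 127 UMIs with a log2 ratio of 3.26 (2.43 to 4.36). Insyn2b and Dock2 overlap on opposite strands in the annotation used, and whether strand entered the counting is not given in the sources used here, so their reads may not be told apart. The same holds for 5830418P13Rik, at a log2 ratio of 3.41 (2.50 to 4.64), which overlaps Bfsp2 on the other strand.

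The other six of the 12 had much smaller ratios in Ndst4-high nuclei. Plch1 itself had 16 and 359 UMIs and was found in 16.9% of labelled-knockout nuclei, with a log2 ratio of 4.24 (3.56 to 5.10) in all gated nuclei and 2.33 in Ndst4-high nuclei. Zfp804b, a zinc finger gene, had 71 and 1011 UMIs, at 3.61 (3.27 to 3.99) and 1.15. Ntf3 was at 3.51 (2.77 to 4.45) and 1.55, and Mrap2, which encodes an accessory protein of melanocortin receptors, at 3.36 (2.19 to 5.16) and 1.36. Dsc3 was at 3.70 (2.54 to 5.49) in all gated nuclei and at −0.04 (−6.33 to 6.26) in Ndst4-high nuclei, where it was nearly without UMIs in either library. The antisense transcript 9530026P05Rik, which overlaps Adamts9, went from 3.27 (2.66 to 4.02) to −2.44 (−5.03 to −0.85). In Ndst4-high nuclei it had only 18 and 3 UMIs, in 2.33% and 0.966% of nuclei. The interval does not cover the spread between so few nuclei, so no reversal is read from it.

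**Figure D4:**
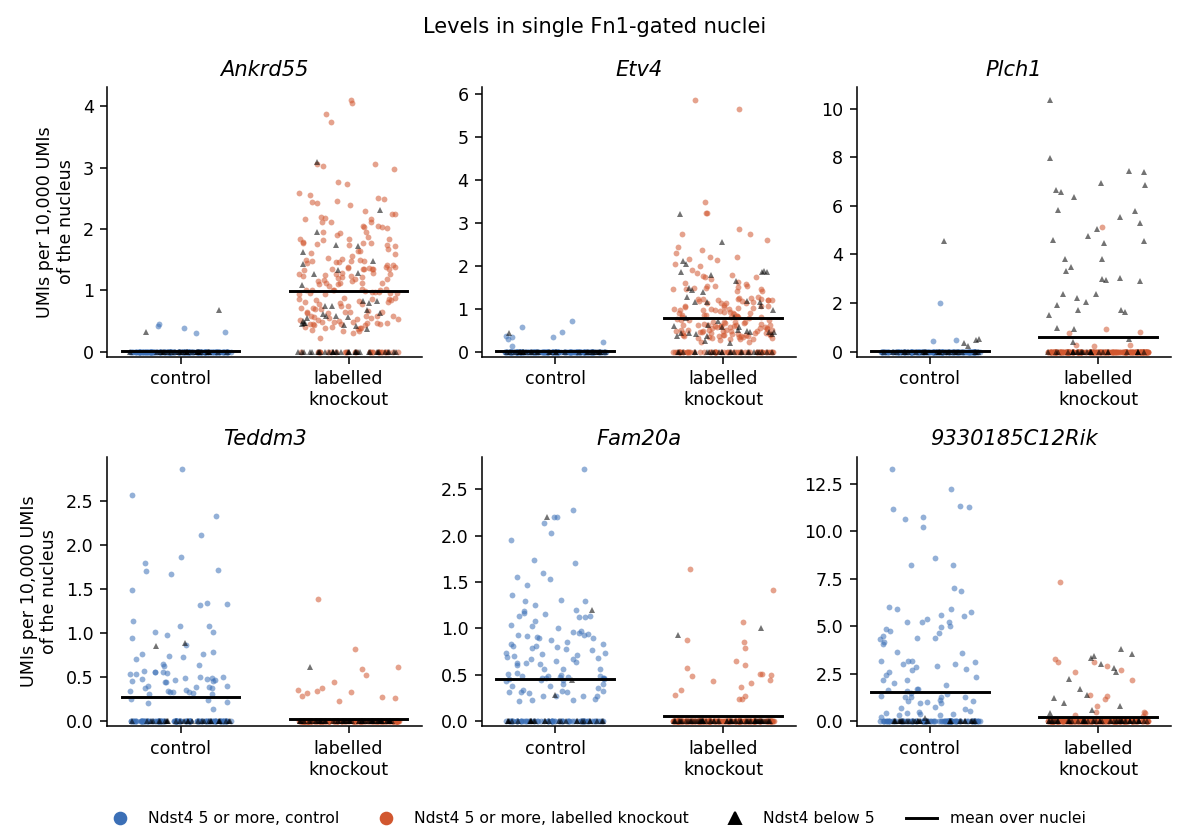
UMIs per 10,000 UMIs of each Fn1-gated nucleus, by library, for 3 genes with higher and 3 with lower sums in the labelled-knockout library; triangles are nuclei below 5 Ndst4 UMIs and bars are means over nuclei. Ankrd55 and Etv4 are spread over most labelled-knockout nuclei, Plch1 lies mostly in the triangles, and Teddm3, Fam20a and 9330185C12Rik are found in 35.1%, 54.0% and 41.1% of control nuclei against 5.88%, 8.82% and 11.8% in that library.

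The 12 genes with the largest ratios on the low side were mostly genes of the Ndst4-high nuclei. Teddm3, a gene of the subiculum list, had 148 UMIs in the control library and 19 in the labelled-knockout library, 26.8 and 2.98 CPM. Control nuclei ranged from 0 to 8 UMIs and labelled-knockout nuclei from 0 to 2, with a median of 0 in both. The log2 ratio was −3.14 (−3.94 to −2.48), and −2.99 in Ndst4-high nuclei. Teddm3, found in 35.1% of control nuclei, thus had 1 of the lowest ratios, while Tshz2, Nts and Slc17a6 of the same list did not. It was lower in CA1-gated nuclei too, with 124 and 39 UMIs, 7.37 and 2.25 CPM.

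Fam20a encodes a pseudokinase of the secretory pathway. It was found in 54.0% of control nuclei and 8.82% of labelled-knockout nuclei, and had 246 and 36 UMIs, at a log2 ratio of −2.97 (−3.53 to −2.47). Its median was 1 UMI in the control library and 0 in the other, and its highest values were 8 and 4. The noncoding 9330185C12Rik had 980 and 181 UMIs, with a log2 ratio of −2.64 (−2.88 to −2.42), and −3.38 in Ndst4-high nuclei. It was in fewer nuclei, 41.1% against 11.8%, and nuclei with a UMI of it held fewer, 11.8 against 5.66 on average. Its highest nucleus had 79 UMIs in the control library and 30 in the labelled-knockout library.

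Other low genes had smaller ratios. Klhl1, a kelch-type protein of neurons, was found in 50.0% and 10.7% of nuclei, at a log2 ratio of −2.42 (−2.83 to −2.04). Mkx, which encodes the homeodomain factor Mohawk, had 299 and 79 UMIs with a log2 ratio of −2.12 (−2.51 to −1.77). Glra3, a glycine receptor subunit gene, was at −2.55 (−3.58 to −1.73). Wnt2, a secreted ligand gene, was at −1.94 (−2.74 to −1.25), and Kcnh1, a voltage-gated potassium channel gene of the EAG type, at −1.89 (−2.71 to −1.17). Each of these 5 was lower by more than 2-fold in Ndst4-high nuclei too, Kcnh1 there with 39 and 8 UMIs, under the minimum for a count. Kcnh1 came to −0.93 with a threshold of 3 Fn1 UMIs and to −0.76 with the limit on Foxp2 and Hs3st4 dropped.

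The remaining low genes, like Teddm3, were low in other nuclei too or depended on which nuclei were taken. The noncoding Gm15155 was at −2.02 (−2.43 to −1.65), and −3.07 in Ndst4-high nuclei. Rell1, a gene of the RELT family of membrane proteins, was at −1.92 (−2.61 to −1.32), and came to −0.75 when the limit on Foxp2 and Hs3st4 was dropped. The noncoding 2310002F09Rik, at −2.14 (−2.59 to −1.72), was as low in inhibitory nuclei, at −2.41, most of which lie outside the lineage of Emx1-Cre. Dcn, which encodes the proteoglycan decorin, was at −1.90 (−2.56 to −1.32) in all gated nuclei and at 0.11 (−1.34 to 1.59) in Ndst4-high nuclei. Of its 98 control UMIs 89 lay in the Il1rapl2 nuclei, so its ratio described those nuclei.

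Genes tied to repression by Capicua were taken as a list of 15, of which 14 reached 20 UMIs and 10 could be counted by size. In Fn1-gated nuclei 2 of the 10 were higher by 2-fold, Etv4 and Spred3, beside 3.09% of all genes that could be counted, and none was lower (0.807% of all genes); the median of the 14 was 0.35 against 0.07 over all genes. In Ndst4-high nuclei the median was 0.44. Etv4 alone was counted there, as 1 higher and 0 lower, beside 2.98% and 1.12% of all genes. Spred3 fell just under 2-fold there, at 0.99. The medians were 0.36 in CA1-gated nuclei, 0.41 in Foxp2/Hs3st4-high nuclei and −0.11 in inhibitory nuclei. Earlier results on these libraries had shown such genes to differ, so the list is not independent evidence of a direction.

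The 3 ETS factors of the PEA3 type had unequal ratios. Etv5 had a median of 4 UMIs per nucleus in the control library (0 to 24) and 5 in the labelled-knockout library (0 to 30). Its log2 ratio was 0.56 (0.45 to 0.68), and 0.58 in Ndst4-high nuclei, against 1.84 in CA1-gated and 1.97 in Foxp2/Hs3st4-high nuclei. Etv1, with medians of 10 and 7 UMIs, was at −0.23 (−0.32 to −0.15), against 0.63 and 1.21. In Ndst4-high nuclei Etv1 had 2225 and 2212 UMIs, at −0.05 (−0.13 to 0.04). The ratio of Etv4 was 5.15 in CA1-gated and 5.21 in Foxp2/Hs3st4-high nuclei. Etv4 thus had nearly the same ratio in all 3 sets of excitatory nuclei and its relatives did not. Whether the ratios differ between nuclei of different kinds could not be tested.

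Feedback inhibitors and adaptors of the kinase pathway were next. Spred3, which encodes an inhibitor of Ras signalling, had 139 and 337 UMIs with a log2 ratio of 1.06 (0.78 to 1.36), and 0.99 in Ndst4-high nuclei. Spred1 was at 0.33 and Spred2 at 0.18. Shc3, which encodes a neuronal adaptor of receptor tyrosine kinases, was found in 86.6% and 97.1% of nuclei, at 0.76 (0.61 to 0.90), and 0.57 in Ndst4-high nuclei, against 1.58 in CA1-gated nuclei. Spry4 had 11 and 48 UMIs, at 1.87 (0.95 to 3.01), and was under the minimum level for a count, while Spry2 was at 0.38 (−0.12 to 0.89). The phosphatase genes Dusp4, Dusp5 and Dusp6 were at 0.25, −0.43 and −0.37 and the cyclin gene Ccnd2 at −0.04, each with an interval that held 0.

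Capicua is known for binding TGAATGAA and TGAATGGA, and these letters were looked for on both strands in windows of 300 bases around gene starts (250 before to 50 after, RefSeq, build GRCm38.p6). They occurred in 2.47% of 32,851 windows. Counted by gene, 770 of 27,025 genes with a window held a match (2.85%). Among genes that could be counted, 10 of 189 higher genes with a window held a match (5.29%), 0 of 46 lower genes, and 106 of 6205 others (1.71%). A match is a description of the letters and not a binding site. Shown are the 100 bases before the start, 5′ to 3′ on the strand of the gene, of the 3 higher genes whose match lay nearest upstream of the start, with the match in capitals: Shc4, a Shc-type adaptor gene (chr2:125724149-125724248, minus strand), Plce1, a phospholipase C gene (chr19:38524097-38524196, plus strand), and Spred3 (chr7:29168648-29168747, minus strand).
Shc4: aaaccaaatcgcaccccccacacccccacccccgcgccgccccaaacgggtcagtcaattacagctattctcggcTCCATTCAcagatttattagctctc
Plce1: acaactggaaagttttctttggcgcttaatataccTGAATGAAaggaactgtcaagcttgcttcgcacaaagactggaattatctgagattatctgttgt
Spred3: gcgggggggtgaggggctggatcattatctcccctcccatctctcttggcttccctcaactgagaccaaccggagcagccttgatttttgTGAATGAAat

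Beside these letters stood the following values. Shc4 had 21 UMIs in the control library and 214 in the labelled-knockout library, a log2 ratio of 3.11, and 3.08 in Ndst4-high nuclei; the match shown, 1 of 2 in its window, began 25 bases before the start. Plce1 had 82 and 280 UMIs, at 1.56 and 1.62, with 1 of its 2 matches 65 bases before the start. The match of Spred3 began 10 bases before its start. Kcns3, a gene for a modulatory potassium channel subunit, and Cdc14b were others of the 10. Shc4, Plce1, Kcns3 and Cdc14b were outside the rule for named genes and are given because of the match.

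A list of 31 genes had been reported from earlier results to differ in other excitatory nuclei of these libraries. Of these 25 reached 20 UMIs over both libraries and 18 could be counted by size; 8 were higher and 1 was lower by 2-fold, beside 3.09% and 0.807% of all genes, and the median was 0.69 against 0.07 over all genes. In CA1-gated nuclei the median of the list was 0.13 over 30 genes and in Foxp2/Hs3st4-high nuclei −0.10 over 31. The list held genes with ratios of both signs there, so its median does not describe 1 direction. It came from these same libraries and includes Ankrd55 and Wdr95, so its counts and median are not independent evidence of a difference. The 1 lower gene, the noncoding 4921539H07Rik, had ratios of opposite sign in female and male nuclei. The uncharacterised 9630014M24Rik had a median of 1 UMI per nucleus in the control library (0 to 16) and 7 in the labelled-knockout library (0 to 33), with a log2 ratio of 1.91 (1.77 to 2.06). Fgf1, a fibroblast growth factor gene, had 91 and 390 UMIs, at 1.88 (1.56 to 2.23), and Gm5820 was at 1.85 (1.60 to 2.11). Camk1g, a calmodulin kinase gene, was at 1.02 (0.70 to 1.35). Hsd11b1, a gene of corticosteroid metabolism, was at 1.34 (0.75 to 2.01) in all gated nuclei and 0.69 in Ndst4-high nuclei. The genes 9630014M24Rik, Fgf1, Gm5820, Camk1g and Hsd11b1 had somewhat larger ratios in CA1-gated nuclei, from 1.70 for Camk1g to 2.49 for 9630014M24Rik.

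Luzp2, which encodes a leucine zipper protein, had ratios of opposite sign in nuclei of the Fn1 and CA1 gates. Fn1-gated nuclei had a median of 1 UMI in the control library (0 to 27) and 6 in the labelled-knockout library (0 to 55), with a log2 ratio of 1.57 (1.45 to 1.70), with 1.27 in female and 2.44 in male nuclei. In CA1-gated nuclei the ratio was −1.29, from 4057 and 1706 UMIs, and in Foxp2/Hs3st4-high nuclei the ratio was −0.93. St8sia2, which encodes a polysialyltransferase, was at 0.71 (0.51 to 0.91), against 2.06 in CA1-gated nuclei. Abca8a had 8 and 17 UMIs here and could not be counted, against a ratio of 2.97 in CA1-gated nuclei.

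Receptors for fibronectin were read because Fn1 defines these nuclei. Of 8 integrin genes measured 4 could be counted by size and none was past 2-fold, beside 3.09% higher and 0.807% lower over all genes; the median was 0.37. With so few genes a count of 0 says nothing about them. Itga8, the partner of β1 in an integrin that binds fibronectin, had 630 and 1319 UMIs, at a log2 ratio of 0.86 (0.72 to 0.99), and 1.05 in Ndst4-high nuclei. Itgav was at 0.59 (0.20 to 1.00) and Itgb1 at −0.26 (−0.50 to −0.02). Fn1 itself had medians of 9 and 10 UMIs and was fixed in part by the gate. In other genes of the extracellular matrix the median was 0.02, with 0 of 10 genes past 2-fold (beside 3.09% higher and 0.807% lower over all genes). Among these the collagen gene Col23a1 was at 0.78 (0.57 to 0.98), and 1.66 in Ndst4-high nuclei, and Reln, which encodes reelin, was at −0.24 in all gated and −2.01 in Ndst4-high nuclei.

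Neuropeptide genes and their receptors had a median of 0.49 over 14 genes, with 1 of the 9 that could be counted higher and 1 lower (11.1% each, beside 3.09% and 0.807% of all genes). Nts was at −0.07 (−0.37 to 0.23). Npy1r, which encodes a receptor for neuropeptide Y, was found in 16.3% and 39.0% of nuclei, at 1.52 (1.01 to 2.08), and 1.68 in Ndst4-high nuclei. Crhr1, which encodes the receptor for corticotropin-releasing hormone, was found in 33.7% and 14.3%, at −1.01 (−1.50 to −0.53), with −0.17 in female and −1.60 in male nuclei, and at −1.71 (−2.41 to −1.09) in Ndst4-high nuclei. The ratio of Crhr1 was −0.96 in CA1-gated and −0.81 in inhibitory nuclei. Vgf, a neurotrophin-regulated peptide precursor gene, was at 0.65 (0.31 to 1.00).

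Axon guidance genes had a median of 0.02 over 37 genes, and 3 of the 31 that could be counted were higher (9.68%, beside 3.09% of all genes) and 0 lower (0.807% of all genes). Robo1, a receptor for Slit proteins, had a median of 1 UMI in the control library (0 to 86) and 6 in the labelled-knockout library (0 to 117), with a log2 ratio of 1.25 (1.18 to 1.34), and 1.62 in Ndst4-high nuclei. Sema5a, a membrane semaphorin gene, was found in 41.6% and 77.9% of nuclei, at 1.64 (1.43 to 1.86). Sema6a was at 1.32 (0.97 to 1.70), and 0.66 in Ndst4-high nuclei. In Ndst4-high nuclei 5 genes of the list were higher and 0 lower, beside 2.98% and 1.12% of all genes there. Dcc, Sema3d and Slit1 were also past 2-fold in those nuclei, at 1.13, 1.47 and 1.45. In all gated nuclei Dcc was at 0.02, as the Il1rapl2 nuclei held most of its UMIs in both libraries. Efnb2 was at −0.67 (−0.91 to −0.44) and Epha7 at −0.58 (−0.67 to −0.48). Teneurins, latrophilins and FLRT genes, which form adhesion complexes between hippocampal axons and their targets, had a median of −0.13 over 14 genes, with none of the 13 that could be counted past 2-fold (beside 3.09% higher and 0.807% lower over all genes). In Ndst4-high nuclei 1 gene of that list was higher, the netrin receptor gene Unc5d, and 0 were lower, beside 2.98% and 1.12% of all genes there. Unc5d was at 1.91 (1.57 to 2.28) in those nuclei and at 0.63 in all gated nuclei. Tenm4 was at 0.49 and Tenm1 at −0.56.

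**Figure D5:**
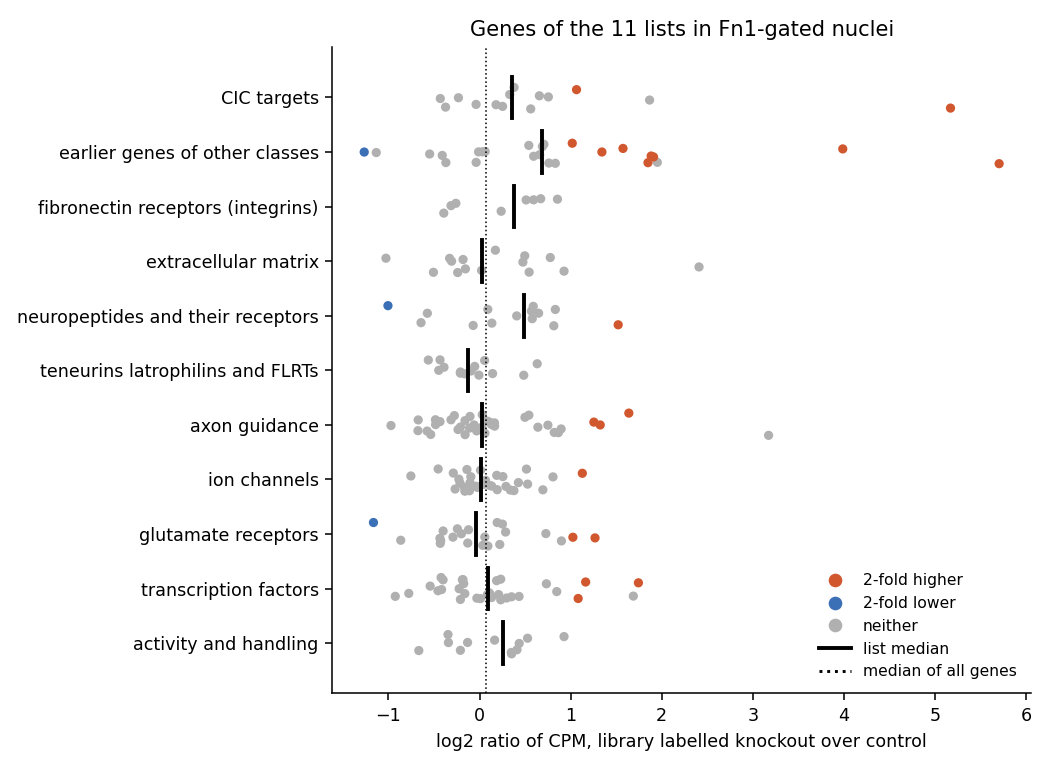
Log2 ratio of CPM, library labelled knockout over control, in Fn1-gated nuclei for each gene of the lists (points; orange and blue mark genes past 2-fold that also reached the minimum level), with the list median (bar) and the median of all genes (dotted line). Most genes of most lists lie within 1 unit of 0.

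Receptors and channels were mostly within 2-fold. Of 21 glutamate receptor genes that could be counted 2 were higher (9.52%, beside 3.09% of all genes) and 1 lower (4.76%, beside 0.807%), with a median of −0.04 over 22. The kainate receptor gene Grik3, one of the higher genes, was at a log2 ratio of 1.02 (0.71 to 1.35), and at 0.03 in CA1-gated nuclei. The AMPA receptor genes Gria1, Gria2 and Gria3 were at −0.43, −0.29 and −0.43. Among 32 channel genes that could be counted Kcnc2, a fast potassium channel gene, was the one past 2-fold (3.12%, near the 3.09% of all genes that were higher), at 1.13 (0.87 to 1.40), and Kcnq3, a subunit of the M-type channel, was at −0.75 (−0.81 to −0.70).

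Transcription factors of cortex and hippocampus had a median of 0.10 over 32 genes, with 3 of 28 higher (10.7%, beside 3.09% of all genes) and 0 lower (0.807% of all genes). In Ndst4-high nuclei 1 was higher, Mef2c, and 0 were lower, beside 2.98% and 1.12% of all genes there. Mef2c, a factor of neuronal maturation, was found in 46.0% and 76.5% of nuclei, at 1.08, and 1.54 in Ndst4-high nuclei. Meis2 was at 1.16, and 0.13 in Ndst4-high nuclei, and Cux2 at 1.74, with 7 and 18 UMIs in Ndst4-high nuclei. Of the 199 Cux2 UMIs of the library labelled knockout 145 (72.9%) lay in the Plch1 nuclei. Bcl6 was at −0.92 and Nfib at −0.78. Genes of neuronal activity and tissue handling had a median of 0.26 over 12 genes, with none of 4 counted past 2-fold (beside 3.09% higher and 0.807% lower over all genes).

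The lists of counted genes overlapped in part with those of other nuclei of the same libraries. Of the 248 higher genes 81 (32.7%) were also counted in CA1-gated nuclei, where they were 48.5% of 167, and 32 (12.9%) in Foxp2/Hs3st4-high nuclei, where they were 42.1% of 76. In neither were 165, and 1 was also counted in inhibitory nuclei. Of the 67 lower genes 7 (10.4%) were also counted in CA1-gated and 8 (11.9%) in Foxp2/Hs3st4-high nuclei, and 58 in neither. The share of genes counted as higher was 1.98% in CA1-gated, 0.892% in Foxp2/Hs3st4-high and 0.227% in inhibitory nuclei, and as lower 0.415%, 0.223% and 0.0113%. These shares cover all genes; of the 20 genes higher in inhibitory nuclei 10 remained without mitochondrial, X-inactivation and Y-linked genes. Sums were deeper in CA1-gated and Foxp2/Hs3st4-high nuclei, so a count over equal depth is not given, and none of these differences was tested.

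The gated nuclei were also described by level of Fn1, the gene on which the gate rested. With 5 to 9, 10 to 19 and at least 20 Fn1 UMIs there were 106, 70 and 26 control nuclei and 125, 117 and 30 labelled-knockout nuclei. Tshz2 stood at 1258, 1178 and 1456 CPM in the control library and at 1416, 1465 and 1720 CPM in the labelled-knockout library. Over these levels Ankrd55 was at log2 ratios of 5.67, 5.41 and 5.64 and Teddm3 at −3.09, −3.61 and −2.06. Both were chosen for the largest ratio in each direction in these same nuclei, so a constant sign was largely fixed in advance. With at least 20 Fn1 UMIs Dcn had no UMI in either library, and the intervals of Glra3 and Kcnh1 held 0. Etv5 was at 0.74 (0.56 to 0.92), 0.57 (0.38 to 0.76) and 0.00 (−0.28 to 0.28). Around the threshold, Tshz2 was found in 93.1% and 92.1% of nuclei with 4 Fn1 UMIs and in 78.9% and 96.3% of those with 5, with 29 and 38 nuclei outside and 19 and 27 inside.

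Nuclei with and without Nts differed in genes of the mixed groups. Those with Nts numbered 84 and 96 and those without 118 and 176. Cux2 stood at 2.94 and 1.63 CPM with Nts and at 14.03 and 49.6 CPM without it. The Il1rapl2 and Plch1 nuclei had almost no Nts. Etv4 was at log2 ratios of 5.29 with Nts and 4.98 without it, and Teddm3 at −3.00 and −3.17. Genes of the Plch1 nuclei differed: Zfp804b was at −0.33 (−1.52 to 0.81) with Nts and 3.84 (3.46 to 4.28) without it. The antisense transcript 9530026P05Rik had 15 and 0 UMIs with Nts and 6 and 240 without it, and Ntf3 had 1 and 1 against 13 and 189. Nuclei with at least 5 Fn1 UMIs that the limit on Foxp2 and Hs3st4 kept out numbered 27 in the control library and 58 in the labelled-knockout library; Tshz2 was in 81.5% and 96.6% of them.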

How the data were processed

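Single-nucleus 3′ RNA sequencing was analysed from 2 libraries, 1 per group. Counts were taken as deposited: raw UMI counts for each gene in each nucleus, not normalized, made with Cell Ranger 8.0.1 per the file headers; the submitters' processing notes name the build mm39, and the annotation version is not given in the sources used here. GENCODE for GRCm38 held 31,961 of 33,696 gene identifiers (94.9%) and served only for overlaps of genes and Y-linked genes.

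Nuclei with under 500 genes or over 5% mitochondrial UMIs were removed. Scrublet calls of doublets were made in each library, with scanpy 1.11.5 (expected rate 0.1), and called nuclei were kept. UMIs were summed over gated nuclei with numpy 2.4.6, pandas 2.3.3, scipy 1.17.1 and anndata 0.12.19 under Python 3.11.15. The log2 ratio compares CPM of the sums with 0.5 UMI added to each. Counting intervals are exact conditional binomial for ratios and Clopper-Pearson for shares. A list median covers genes whose 2 libraries summed to at least 20 UMIs. Sums were 5,517,214 and 6,383,079 UMIs. A nucleus counted as female had no UMI from the Y-linked genes Eif2s3y, Ddx3y, Kdm5d and Uty and 2 or more of Xist; a male one had no Xist and 1 or more Y-linked UMIs.

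CA1-gated nuclei (697 and 813) held at least 5 UMIs of Wfs1, Fibcd1 and Mpped1 together and fewer than 5 of Fn1. They met the transporter, endothelial, fibroblast and Gad terms of the Fn1 gate and its limit on Foxp2 and Hs3st4. Their Prox1, Dsp and C1ql2 UMIs were fewer than those of the CA1 genes. Hs3st4 was found in 75.2% and 61.0% of them, so the Foxp2/Hs3st4-high set may hold similar nuclei above the limit. Foxp2/Hs3st4-high nuclei numbered 2598 and 2119, inhibitory nuclei 735 and 795, and microglia nuclei 1267 and 1282. The Foxp2/Hs3st4-high set is defined by that rule and was not resolved into cell types.

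Named were Cic, members of the lists, and the 12 largest ratios in each direction among genes past the size rule with the same sign in both sexes, without mitochondrial, X-inactivation and Y-linked genes. Members and lists were chosen with earlier results of these data known. Alternatives (no shared barcodes, no limit on Foxp2 and Hs3st4, at least 5 Ndst4 UMIs) were chosen after seeing the data. Values of some list members are not reported here. The scripts were tested on simulated data.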

Additional observations from a re-analysis of the deposited data

Results flagged for a closer look

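The noncoding transcript 4921539H07Rik had a log2 ratio of 3.41 in female Fn1-gated nuclei, from 1 UMI in the control library and 25 in the library labelled knockout, and of −1.50 in male nuclei, from 27 and 10 UMIs. The opposite directions in the sexes drew notice. Female nuclei came from 1 mouse per library, so sex and single mouse cannot be told apart, and the difference was not tested. The sum over all gated nuclei was 92 and 44 UMIs, at −1.27 (−1.83 to −0.74).

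Luzp2 had a log2 ratio of 1.57 in Fn1-gated nuclei and −1.29 in CA1-gated nuclei of the same libraries. It drew notice because the 2 kinds of nuclei had opposite directions; within the Fn1 gate it was higher in female and in male nuclei. The difference was not tested.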

How the results depend on the processing

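Each group was 1 library, so no replicate could be left out and no result was tested. No paired analysis was possible because each group has 1 library, and the shared replicate number 1 only names it. The count of 257 higher genes became 401 in female nuclei, 159 in male nuclei, 62 after thinning each nucleus to 2000 UMIs, 505 with a minimum of 20 UMIs and none on CPM, 170 with a minimum of 100 UMIs and 20 CPM, and 93 at 3-fold. The count of 67 lower genes became 40 in female nuclei, 17 after thinning, 158 and 36 with those minimums, and 21 at 3-fold. Over 12 settings 281 of 288 values of the 24 named genes stayed past 2-fold in the same direction. These genes were chosen for the largest ratios, with the same sign in both sexes, in these same nuclei. The share that stayed was therefore largely set by that choice. With Ndst4 required, Dsc3 came to −0.039, 9530026P05Rik to −2.44 and Dcn to 0.11; Dcn was at −0.56 in female nuclei; Rell1 and Kcnh1 came to −0.75 and −0.76 with the Foxp2 and Hs3st4 limit dropped, and Kcnh1 to −0.93 at 3 Fn1 UMIs. In female nuclei 4921539H07Rik came to 3.41. The median of the list from earlier results was 1.27 in female nuclei, that of the integrins −0.28 and of the glutamate receptors −0.21 after thinning, and that of the extracellular matrix 0.57 in male nuclei. The share of gated nuclei in the control library was 0.383% at 10 Fn1 UMIs, 1.08% at 3, 0.686% with Ndst4 and 0% when the gate was applied after thinning; in the library labelled knockout it was 0.638%, 1.48%, 0.898% and 0.0141%, with 1.43% without the Foxp2 and Hs3st4 limit and 1.41% among female nuclei. Tshz2 was found in 80.7% of control nuclei after thinning, and in the library labelled knockout in 99.3% at 10 Fn1 UMIs, 99.2% of male nuclei, 100% with Ndst4 and 90.1% after thinning. Nts was found in 6.93% of control nuclei after thinning, and in the library labelled knockout in 44.9% at 10 Fn1 UMIs, 44.4% with Ndst4 and 4.78% after thinning. Size factors by the median of ratios moved all log2 ratios by 0.056.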

Other observations

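Some genes that no list held had large ratios in Ndst4-high nuclei. They were chosen after their values had been seen, and CA1-gated ratios are given for only a part of them. Arhgef26, which encodes a guanine nucleotide exchange factor, had 84 UMIs in the control library and 734 in the library labelled knockout, in 30.2% and 90.3% of nuclei. Its log2 ratio was 3.08 (2.76 to 3.43), against 0.56 in CA1-gated nuclei. Sntg2, a syntrophin gene, had 183 and 1502 UMIs, in 28.5% and 82.6% of nuclei, at 2.99 (2.78 to 3.23). Kcns3 had 31 and 294 UMIs, at 3.19 (2.67 to 3.79), and Eps8, a regulator of actin, was at 2.88 (2.48 to 3.32). Alk was at 2.35 (1.98 to 2.75), Met at 2.49 (1.61 to 3.62) and Flt3 at 2.36 (1.67 to 3.18); each encodes a receptor tyrosine kinase, and the other genes of that class were not counted as a list.

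On the low side Dpp10, an auxiliary subunit of A-type potassium channels, had 15,480 and 4952 UMIs in Ndst4-high nuclei, at −1.68 (−1.73 to −1.64), and was found in 100% and 77.3% of them. Ptger3, which encodes a receptor for prostaglandin E2, was at −2.36 (−3.16 to −1.69), and Adra1b, for a receptor of noradrenaline, at −2.09 (−2.98 to −1.34). In CA1-gated nuclei these 3 genes were at −0.96, 0.04 and 0.58.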
